A study of Mus musculus with 18 samples.

Results

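The genes described here are a fixed list of 54 genes that act in mitosis, the step of the cell cycle in which copied chromosomes are attached to the spindle and divided between daughter cells. They were chosen by name for their roles, with no threshold on expression, from the 55491 genes of the table, and all 54 had enough counts to be tested in every comparison below. They fall into 11 roles that run from the kinase that starts mitosis to the proteins that cut the cell in 2.

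B cells were obtained from the spleen and the Peyer's patches, which are clusters of lymphoid tissue along the small intestine, of female BALB/cJ mice, which were 10–12 weeks old at collection. Every mouse, controls included, had been made allergic with 20 μg of the egg protein ovalbumin (OVA) mixed with 1 mg alum, injected into the abdomen on days 0 and 14. On days 28 and 42 the mice received an intravenous dose of 100 μL PBS, of 100 μg OVA in solution (soluble OVA), or of 2.5 mg polymer nanoparticles that carry OVA inside (OVA NPs), and cells were collected on day 44, which was 2 days after the last dose. There were 18 libraries in 6 groups, with 3 libraries for each tissue and treatment, labelled as biological replicates. No unsensitized mice and no empty particles were among these libraries. The B cells were enriched by magnetic removal of other cells, and only the Peyer's patches were digested with enzymes, so tissue and digestion cannot be told apart.

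Entry into mitosis is driven by CDK1 bound to cyclins, after which kinetochores assemble on each centromere and catch the microtubules of the spindle. A checkpoint holds the cell until all kinetochores are attached, and the anaphase-promoting complex then releases the sister chromatids by activating separase. B cells at rest express little of this program, whereas B cells in germinal centers, which form in the spleen after immunization and are usually present in Peyer's patches, divide rapidly. Many of these genes are transcribed mainly late in the cell cycle, through promoters that carry the cell cycle homology region (CHR), with the letters TTTGAA, and CCAAT boxes.

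The promoters of 4 members are shown, since the genes moved together across the groups and these windows hold both elements. Of 16 members fixed by role for full values, they are the first 4 by alphabet whose window holds a CHR and at least 2 CCAAT boxes. Each is a RefSeq window of GRCm38.p6 with 250 bases before and 50 bases after the start site, written 5′ to 3′ on the strand of the gene, and capitals mark TTTGAA and CCAAT on either strand (ATTGG is CCAAT read on the other strand). Ccnb2 lies at chr9:70421505-70421804 on the minus strand, Cdc20 at chr4:118437294-118437593 on the minus strand, Cdk1 at chr10:69352863-69353162 on the minus strand, and Cenpa at chr5:30666636-30666935 on the plus strand.
Ccnb2: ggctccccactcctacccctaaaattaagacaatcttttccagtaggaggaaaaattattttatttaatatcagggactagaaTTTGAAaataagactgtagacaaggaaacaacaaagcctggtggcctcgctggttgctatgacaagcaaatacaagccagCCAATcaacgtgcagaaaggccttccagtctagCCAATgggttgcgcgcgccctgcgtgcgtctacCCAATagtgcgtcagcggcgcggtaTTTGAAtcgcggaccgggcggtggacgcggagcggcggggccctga
Cdc20: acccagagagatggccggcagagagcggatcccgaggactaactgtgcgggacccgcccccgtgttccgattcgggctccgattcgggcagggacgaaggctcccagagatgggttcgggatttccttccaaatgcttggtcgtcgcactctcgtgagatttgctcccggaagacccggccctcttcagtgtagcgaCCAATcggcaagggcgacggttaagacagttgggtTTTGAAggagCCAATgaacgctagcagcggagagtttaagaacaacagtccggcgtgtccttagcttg
Cdk1: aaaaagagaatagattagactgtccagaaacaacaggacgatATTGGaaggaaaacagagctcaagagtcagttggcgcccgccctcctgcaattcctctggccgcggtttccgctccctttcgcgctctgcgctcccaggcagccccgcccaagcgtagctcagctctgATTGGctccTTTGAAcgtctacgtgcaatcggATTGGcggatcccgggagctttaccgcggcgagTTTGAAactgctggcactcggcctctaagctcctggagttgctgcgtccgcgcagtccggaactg
Cenpa: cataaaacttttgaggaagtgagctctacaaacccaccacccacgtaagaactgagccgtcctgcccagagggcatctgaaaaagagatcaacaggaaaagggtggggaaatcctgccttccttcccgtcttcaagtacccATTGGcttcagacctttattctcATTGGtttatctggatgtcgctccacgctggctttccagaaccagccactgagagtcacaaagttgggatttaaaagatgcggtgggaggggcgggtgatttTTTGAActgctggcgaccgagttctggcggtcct

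In the Cdc20 window the CHR began at position -18 from the start site, between CCAAT boxes at -53 and -8. The Cdk1 window held CHR letters at -71 and -15 and CCAAT boxes at -208, -80, and -48. In Ccnb2, CCAAT boxes at -87, -54, and -21 preceded a CHR at position 5, with another CHR far upstream at -167. The Cenpa window carried its CHR at position 17, with CCAAT boxes at -109 and -86.

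Of the 54 members, 44 had an entry in the promoter table, with 47 windows. TTTGAA was present on either strand in 33 of these windows (70.2%), against 17.9% of all 32851 windows of the same length and 12.6% of the 12792 windows of genes tested in the spleen OVA NP comparison. CCAAT stood in 35 windows (74.5%), against 37.4% of all windows, and at least 2 copies stood in 44.7% of member windows against 11.7% of all. Both elements were found together in 28 member windows (59.6%) and in 6.95% of all windows. The variant TTTAAA was found in 19.1% against 13.2%. The letters of the E2F site, the element of S-phase promoters, stood in few member windows. TTTCGCGC was in 2.13% of them against 0.323% of all windows, TTTGGCGC in 6.38% against 0.514%, and TTCCCGCC in 0 against 2.19%. In 38 windows of 33 S-phase genes the same 3 strings stood in 21.1%, 15.8%, and 18.4%, and TTTGAA in 10.5%. These matches describe letters in a window and are not evidence of binding.

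**Figure D1:**
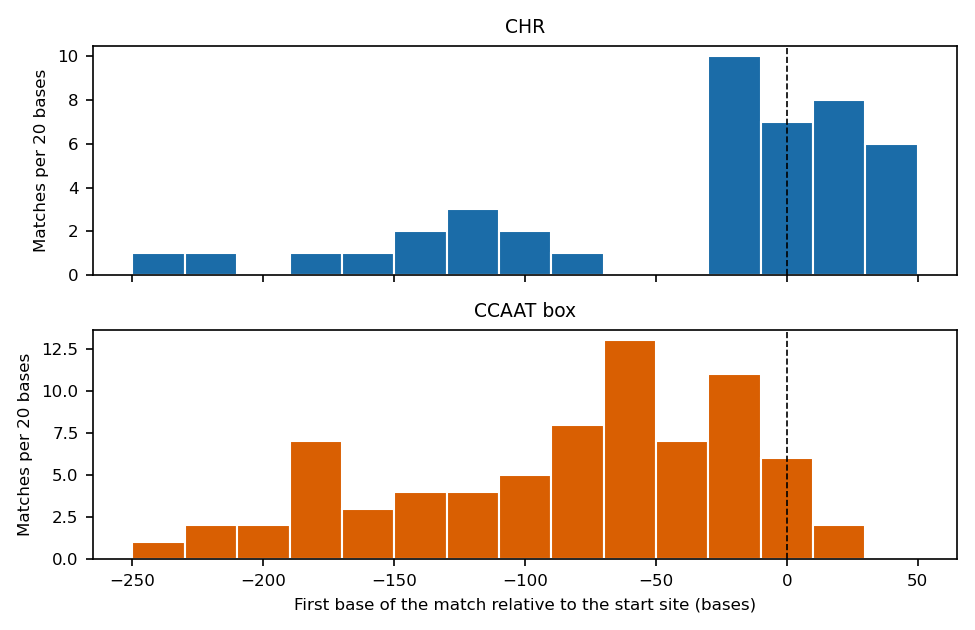
Positions of CHR (TTTGAA, upper panel) and CCAAT (lower panel) matches in the 47 promoter windows of the mitosis genes, as matches per 20 bases (y axis) against the distance of the first base of the match from the start site in bases (x axis, dashed line at the start site). Of 43 CHR matches, 76.7% lay between -100 and 50, with a median position of -15. The 75 CCAAT matches had a median of -67, with 68.0% in the same range.

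CHR matches clustered near the start site, with 33 of 43 between positions -100 and 50. Of the CCAAT matches, 51 of 75 (68.0%) lay in that range too, though their median was farther upstream, at -67 against -15. Matches in the overlapping windows of Ect2 and of Prc1 were counted in each window. The members with a window but no TTTGAA were Ccnb1, Nek2, Melk, Bub1, Mad2l1, Sgo1, Sgo2a, Cenpe, Nuf2, Kif18a, Birc5, Ncaph, and Nusap1. Incenp, Aurkb, Esco2, Tpx2, Kif20a, Ccna2, Smc4, Dlgap5, Cdc25c, and Spc24 had no entry.

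Library totals ran from 14177253 to 30052297 counts, so that 3 counts, taken as the lowest level that can be told from 0, stood for 0.0998 to 0.212 counts per 1000000 (CPM) for counting error only. Levels are given in CPM of the library total. Markers of B cells (Ms4a1, Cd79a, and 6 others) summed to 9411 to 9676 CPM in spleen PBS libraries, 9003 to 9196 after soluble OVA, and 8122 to 9107 after OVA NPs. Their Peyer's patch sums were 6825 to 7094 CPM in PBS libraries, 5616 to 6573 after soluble OVA, and 6206 to 6253 after OVA NPs, so that both treated groups of each tissue lay below PBS, and the part of this in the results was not tested. Not every gene of the list followed the sum. Ms4a1 overlapped with PBS, at 1249 to 1369 CPM in spleen PBS, 1341 to 1366 after soluble OVA, and 1294 to 1460 after OVA NPs. Its Peyer's patch levels were 960 to 1162, 1039 to 1122, and 968 to 1040 CPM in the same order. The spleen libraries also held transcripts of myeloid progenitors, such as Mpo at 104 to 399 CPM, and of erythroid precursors, such as Klf1 at 26.1 to 65.1 CPM. Mpo and Klf1 in Peyer's patch were at or near that level, at most 0.364 CPM, except in OVA NP replicate 3, with 31.0 CPM of Mpo and 6.57 CPM of Klf1. In bulk RNA, more dividing cells and more mitotic RNA per dividing cell cannot be told apart, and p-values below measure the spread between libraries.

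The mitosis genes rose as a block in the spleen after both forms of the allergen, and in Peyer's patch after soluble OVA, where no member was called after OVA NPs. Their summed level in the spleen was 1350.4, 1235, and 1361 CPM in PBS replicates 1 to 3, 3117, 2912, and 3262 CPM after soluble OVA, and 3465, 2853, and 2447.5 CPM after OVA NPs. The Peyer's patch sum was 4765, 4189.7, and 4010.0 CPM in PBS libraries, 8717, 9327, and 9142 CPM after soluble OVA, and 3246, 4367, and 4479 CPM after OVA NPs. Every spleen library of a treated mouse stood above every spleen PBS library, and every soluble OVA library of Peyer's patch stood above the other 6 of that tissue. Peyer's patch OVA NP and PBS libraries overlapped, with OVA NP replicate 1 below all others.

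**Figure D2:**
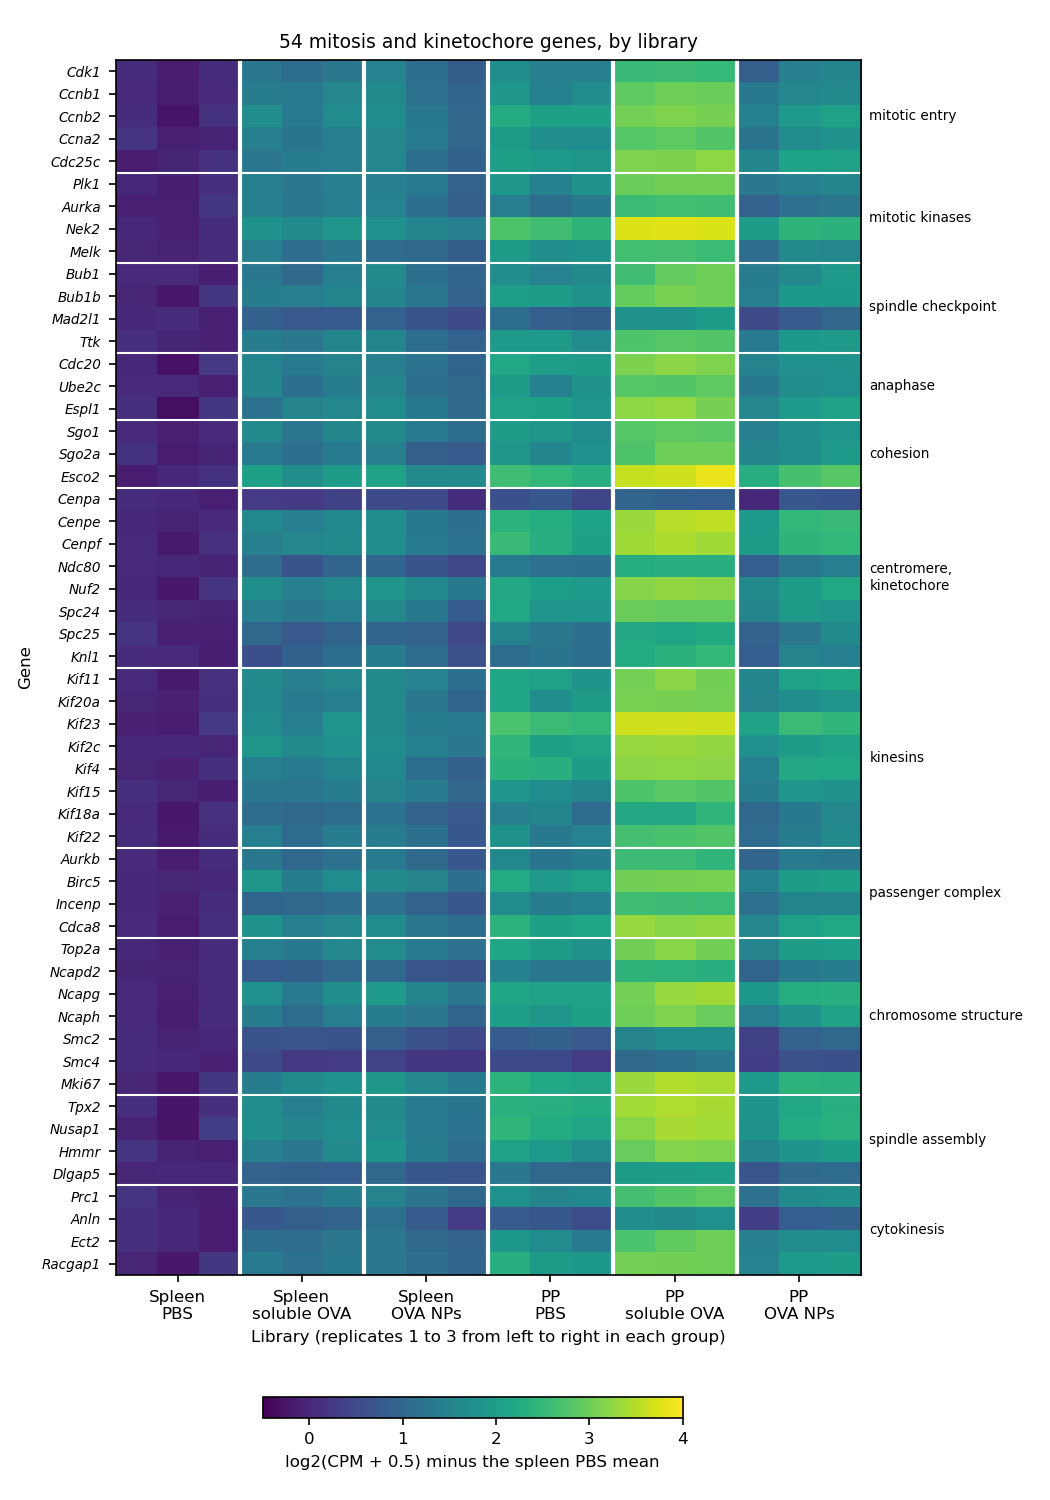
Level of the 54 mitosis and kinetochore genes (rows, grouped by role) in each of the 18 libraries (columns, replicates 1 to 3 in each group), as log2(CPM + 0.5) minus the mean of the spleen PBS libraries. Nearly all rows brighten in both treated spleen groups and most of all in Peyer's patch (PP) after soluble OVA, while the rows of Cenpa, Smc2, and Smc4 change least.

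**Figure D3:**
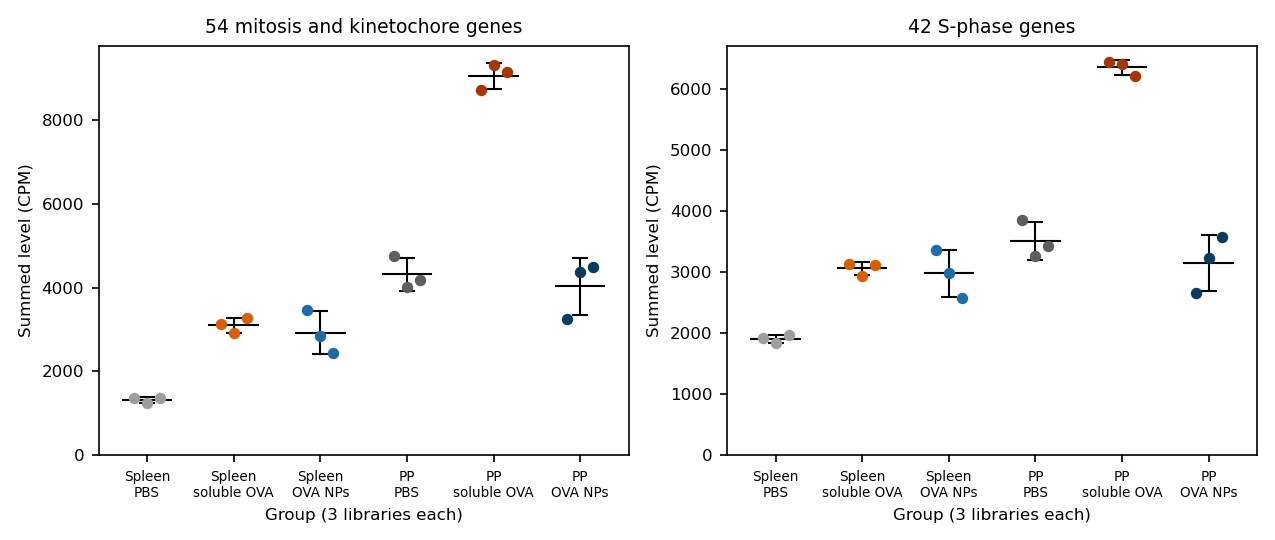
Summed CPM (y axis from 0) of the 54 mitosis genes and of 42 S-phase genes in each library (points), by group, with the mean (line) and SD (bar, n = 3). Mitosis gene sums lie between 1235 and 1361 in spleen PBS and between 8717 and 9327 in Peyer's patch (PP) after soluble OVA.

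Changes are given as log2 fold changes, where ± marks the SE of the edgeR fit (n = 3 libraries a group). The F test of edgeR prints no SE, so it was derived as the absolute log2 fold change divided by the square root of F. A gene was called when edgeR's adjusted p was under 0.05 and the log2 fold change was beyond 0.25 in either direction. In the spleen after OVA NPs, 54 of 54 members were called higher than PBS, where 8.6% of the 14200 tested genes were, and the median log2 fold change was 1.29 against 0.00 over all tested genes. For 53 members the OVA NP and PBS libraries did not overlap, as was so for 16.8% of all genes in that direction. After soluble OVA, 54 of 54 were called higher in the spleen (10.5% of tested genes), with a median of 1.46 (all genes -0.01), and all 54 had groups that did not overlap (17.7%). Both comparisons use the same PBS libraries. OVA NPs against soluble OVA in the spleen gave 0 calls (0.137% of genes were called higher and 0.101% lower), with 4 members at an unadjusted p under 0.05, 0 calls by DESeq2, and a median of -0.13.

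In Peyer's patch, soluble OVA gave 54 of 54 members called higher than PBS (13.5% of tested genes), with a median of 1.10 (all genes -0.02), and with no overlap of the groups for all 54 (20.4%). OVA NPs against PBS gave 0 calls by edgeR, which called 0% of genes in either direction. Of the members, 3 (Plk1, Melk, and Cdc20) were at an unadjusted p under 0.05. DESeq2 called 0 members, beside 96 genes higher and 54 lower among the 27936 it tested. The members' median was -0.11 in that comparison, from -0.38 for Melk to 0.16 for Knl1. Directly against soluble OVA, 53 of 54 members were lower after OVA NPs (16.3% of tested genes), with a median of -1.23 (all genes 0.03), and the libraries did not overlap for 54 of 54 (24.1%). These comparisons share the PBS or the soluble OVA libraries. The share of counts from mitochondrial genes moved with this contrast, at 9.08% to 9.80% after OVA NPs, 4.97% to 6.02% after soluble OVA, and 5.41% to 7.67% in PBS libraries, with OVA NP libraries above all others, and its part in the difference was not tested. Among PBS mice, 54 of 54 members were called higher in Peyer's patch than in the spleen (25.5% of tested genes), with a median of 2.02 (all genes 0.01) and no overlap for 54 (27.6%).

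**Figure D4:**
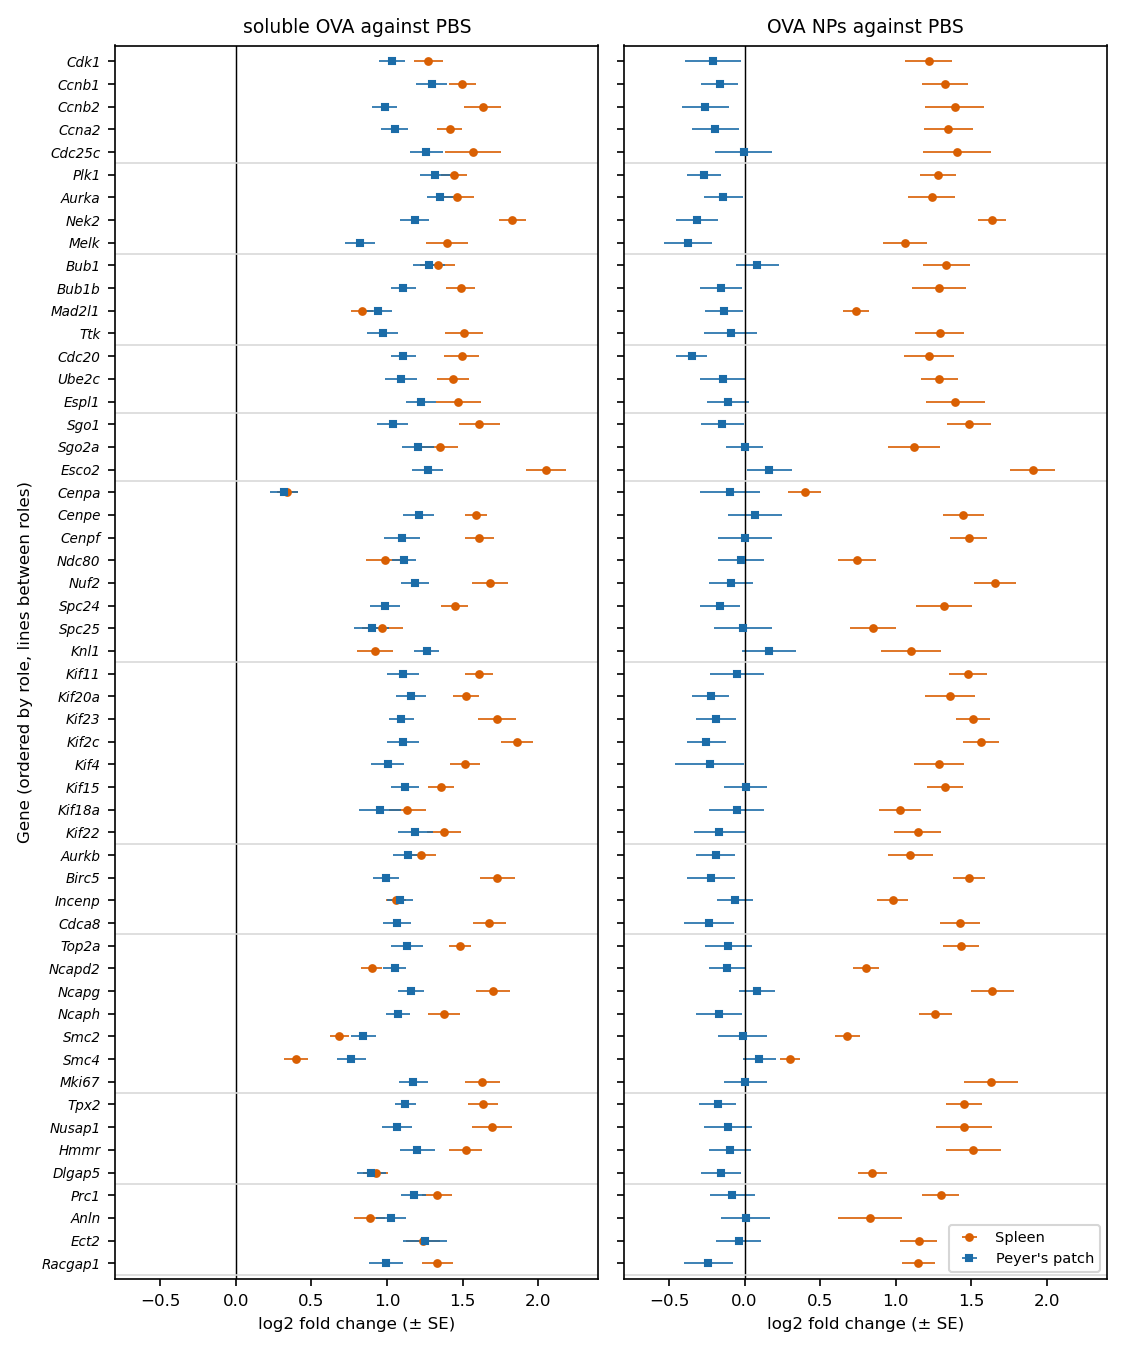
Log2 fold change against PBS (x axis, ± SE of the edgeR fit) of each of the 54 members (y axis, ordered by role) after soluble OVA (left) and OVA NPs (right), in spleen (circles) and Peyer's patch (squares). After soluble OVA both tissues lie right of 0, and after OVA NPs the Peyer's patch values lie around 0, between -0.38 and 0.16.

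The kinase CDK1 and its cyclins start mitosis, and the phosphatase CDC25C removes the phosphates that hold CDK1 back. In the spleen, Cdk1 (ENSMUSG00000019942, GRCm38 chr10:69335146-69352938, minus strand) stood at 15.5, 13.1, and 15.7 CPM in PBS replicates 1 to 3, 35.9, 32.6, and 36.7 CPM after soluble OVA, and 42.3, 33.7, and 26.4 CPM after OVA NPs. Cdk1 in Peyer's patch stood at 49.0, 41.4, and 41.5 CPM in PBS replicates 1 to 3, 89.0, 90.8, and 86.5 CPM after soluble OVA, and 27.3, 41.5, and 44.2 CPM after OVA NPs. Treated spleen libraries were all above PBS, and Peyer's patch separated only the soluble OVA libraries from the rest, with OVA NP replicate 1 lowest. Against PBS the log2 fold change of Cdk1 in the spleen was 1.22 ± 0.16 after OVA NPs and 1.27 ± 0.10 after soluble OVA, and in Peyer's patch -0.21 ± 0.18 and 1.03 ± 0.09 (adjusted p from edgeR 0.00101, 7.36e-07, 0.724, and 9.16e-05).

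Ccnb1, which encodes cyclin B1, the main partner of CDK1, was in the spleen at 15.8, 14.0, and 15.9 CPM in PBS replicates 1 to 3, 41.1, 39.5, and 46.2 CPM after soluble OVA, and 47.9, 35.5, and 30.3 CPM after OVA NPs. Its Peyer's patch levels were 57.4, 43.4, and 49.4 CPM in PBS replicates 1 to 3, 115, 126, and 123 CPM after soluble OVA, and 38.5, 46.5, and 47.8 CPM after OVA NPs. The soluble OVA libraries were above all other Peyer's patch libraries for this cyclin, whose change there was 1.30 ± 0.10, against the spleen value of 1.50 ± 0.09. Ccnb2, the cyclin B2 gene whose promoter is shown above, had 15.4, 12.1, and 16.1 CPM in PBS replicates 1 to 3, 48.3, 37.4, and 46.9 CPM after soluble OVA, and 47.5, 36.9, and 29.0 CPM after OVA NPs in the spleen. Ccnb2 in Peyer's patch had 71.6, 61.8, and 60.5 CPM in PBS replicates 1 to 3, 125, 129, and 125 CPM after soluble OVA, and 41.2, 56.8, and 62.5 CPM after OVA NPs. Here the spleen change after soluble OVA, 1.63 ± 0.12, was larger than that of Peyer's patch, 0.98 ± 0.08, with a difference of -0.65 ± 0.16 between tissues (adjusted p = 0.0289, edgeR interaction). Ccna2, encoding cyclin A2, rose by 1.35 and 1.42 in the spleen after OVA NPs and soluble OVA, and Cdc25c, the least abundant member per kilobase in the spleen, by 1.41 and 1.57.

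Polo-like kinase PLK1 acts from entry to cytokinesis, Aurora A (Aurka) and NEK2 act at the centrosomes, and MELK is a kinase abundant in dividing cells. Plk1 stood at 19.5, 17.7, and 20.7 CPM in PBS replicates 1 to 3, 52.9, 47.8, and 53.8 CPM after soluble OVA, and 52.5, 50.4, and 36.7 CPM after OVA NPs in the spleen. Its Peyer's patch levels were 71.9, 54.2, and 67.9 CPM in PBS replicates 1 to 3, 156, 161, and 160.0 CPM after soluble OVA, and 48.4, 54.1, and 57.1 CPM after OVA NPs. The 3 soluble OVA libraries of Peyer's patch lay within 5 CPM of each other and far above the rest, and Plk1 had the largest fall of all members against them after OVA NPs, -1.60 ± 0.09 (adjusted p = 0.000129, edgeR). Aurka had the largest rise after soluble OVA in that tissue, 1.35 ± 0.09. Nek2 differed most between the tissues of PBS mice, by 2.73 ± 0.10, and rose in the spleen by 1.64 after OVA NPs and 1.83 after soluble OVA. Melk rose by 1.06 and 1.40 in the same comparisons and by 0.82 after soluble OVA in Peyer's patch.

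BUB1, BUBR1 (Bub1b), MAD2 (Mad2l1), and the kinase MPS1 (Ttk) delay anaphase until each kinetochore is attached. Bub1b was measured in the spleen at 19.5, 17.0, and 22.9 CPM in PBS replicates 1 to 3, 52.4, 53.5, and 58.1 CPM after soluble OVA, and 58.5, 48.3, and 37.5 CPM after OVA NPs. Peyer's patch gave 80.2, 78.3, and 70.2 CPM in PBS replicates 1 to 3, 155, 171, and 161 CPM after soluble OVA, and 53.8, 74.7, and 75.0 CPM after OVA NPs. Again the treated spleen groups were above PBS without overlap and only soluble OVA stood apart in Peyer's patch. The log2 fold change of Bub1b in the spleen was 1.29 ± 0.18 after OVA NPs and 1.49 ± 0.10 after soluble OVA, with adjusted p of 0.00394 and 2.29e-07 by edgeR. Bub1 rose by 1.33 after OVA NPs in the spleen and Ttk by 1.29, while Mad2l1 rose less, by 0.74. After soluble OVA in Peyer's patch the same 3 genes rose by 1.28, 0.97, and 0.94.

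CDC20 activates the anaphase-promoting complex, the ubiquitin-conjugating enzyme UBE2C supplies its ubiquitin, and separase (Espl1) then cuts the cohesin ring. Cdc20 had 23.0, 18.6, and 27.0 CPM in PBS replicates 1 to 3, 66.3, 57.9, and 65.7 CPM after soluble OVA, and 61.7, 52.9, and 44.0 CPM after OVA NPs in the spleen. Its Peyer's patch levels were 106, 92.3, and 91.8 CPM in PBS replicates 1 to 3, 199, 215, and 202 CPM after soluble OVA, and 65.7, 78.4, and 81.2 CPM after OVA NPs. In Peyer's patch the OVA NP libraries all lay below the PBS libraries for Cdc20, and the change, -0.35 ± 0.10, had an unadjusted p of 0.00764 but an adjusted p of 0.358 by edgeR, so it was not called. Espl1 stood at 13.6, 9.89, and 14.9 CPM in PBS replicates 1 to 3, 29.2, 37.1, and 38.8 CPM after soluble OVA, and 41.1, 32.3, and 26.8 CPM after OVA NPs in the spleen. Espl1 in Peyer's patch stood at 55.6, 53.9, and 47.0 CPM in PBS replicates 1 to 3, 123, 127, and 111 CPM after soluble OVA, and 38.9, 49.8, and 54.9 CPM after OVA NPs. Espl1 rose by 1.40 and 1.47 in the spleen after OVA NPs and soluble OVA and by 1.22 in Peyer's patch after soluble OVA, and Ube2c by 1.29, 1.44, and 1.09.

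Shugoshins (Sgo1 and Sgo2a) shield centromeric cohesin, and ESCO2 acetylates cohesin while DNA is copied so that sister chromatids hold together. Esco2 had the largest change in the spleen under both treatments, with 4.56, 5.13, and 5.81 CPM in PBS replicates 1 to 3, 23.0, 18.3, and 22.0 CPM after soluble OVA, and 23.6, 16.9, and 17.2 CPM after OVA NPs. Esco2 in Peyer's patch had 34.2, 31.0, and 28.0 CPM in PBS replicates 1 to 3, 68.3, 71.7, and 82.2 CPM after soluble OVA, and 27.4, 36.1, and 39.9 CPM after OVA NPs. Even the lowest treated spleen library held over 2 times the level of the highest PBS library. The log2 fold changes were 1.91 ± 0.15 after OVA NPs and 2.05 ± 0.13 after soluble OVA (adjusted p = 2.67e-06 and 1.99e-07, edgeR), against 1.27 ± 0.10 after soluble OVA in Peyer's patch. Sgo1 rose in the spleen by 1.49 and 1.61, and Sgo2a by 1.12 and 1.35.

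CENPA is the histone H3 variant that marks the centromere, CENPE is a kinesin that carries chromosomes to the spindle equator, and NDC80, NUF2, SPC24, and SPC25 form the complex that grips microtubules. Cenpa changed less than most members, with spleen levels of 66.4, 63.2, and 58.0 CPM in PBS replicates 1 to 3, 76.7, 75.0, and 82.3 CPM after soluble OVA, and 91.1, 88.2, and 66.4 CPM after OVA NPs. Its Peyer's patch levels were 94.9, 105, and 85.4 CPM in PBS replicates 1 to 3, 122, 116, and 112 CPM after soluble OVA, and 63.4, 104, and 97.3 CPM after OVA NPs. It was the 1 member whose spleen OVA NP and PBS libraries overlapped, with OVA NP replicate 3 at the level of PBS replicate 1. Its calls were among those with the smallest changes: 0.40 ± 0.11 after OVA NPs and 0.34 ± 0.07 after soluble OVA in the spleen, and 0.32 ± 0.09 after soluble OVA in Peyer's patch (adjusted p = 0.034, 0.00276, and 0.033, edgeR). Leaving out any 1 of the 6 libraries other than OVA NP replicate 3 ended the OVA NP call in the spleen, with values of 0.32 to 0.44. Cenpa was also the member not called between OVA NPs and soluble OVA in Peyer's patch, at -0.42 ± 0.19 (adjusted p = 0.154), although those libraries did not overlap.

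Cenpe stood at 24.3, 23.2, and 24.6 CPM in PBS replicates 1 to 3, 73.5, 66.2, and 73.4 CPM after soluble OVA, and 80.7, 60.9, and 53.8 CPM after OVA NPs in the spleen. Peyer's patch held 130.2, 119.7, and 106 CPM in PBS replicates 1 to 3, 244, 279, and 289.8 CPM after soluble OVA, and 91.6, 137, and 141 CPM after OVA NPs. All treated spleen libraries had more than 2 times the Cenpe of any PBS library, with changes of 1.45 ± 0.14 and 1.59 ± 0.07. Ndc80 stood at 11.8, 11.5, and 10.8 CPM in PBS replicates 1 to 3, 25.1, 18.3, and 22.7 CPM after soluble OVA, and 22.8, 18.1, and 15.9 CPM after OVA NPs in the spleen. Ndc80 in Peyer's patch stood at 29.6, 26.8, and 26.1 CPM in PBS replicates 1 to 3, 57.2, 59.5, and 59.7 CPM after soluble OVA, and 20.8, 28.1, and 31.5 CPM after OVA NPs. Its spleen change after OVA NPs, 0.75 ± 0.12, was below that of its partner Nuf2, 1.66 ± 0.14, and the other 2 subunits gave 1.32 for Spc24 and 0.85 for Spc25. Cenpf, a large protein of the outer kinetochore, rose by 1.48, and Knl1, the scaffold that recruits BUB1, by 1.10. In this role 8 of 8 genes were called higher in each treated spleen group and after soluble OVA in Peyer's patch. Beside this, 8.6% and 10.5% of all tested genes were called higher in the spleen after OVA NPs and soluble OVA. For Peyer's patch after soluble OVA it was 13.5%.

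Kinesins are motors that move along microtubules, and KIF11 pushes the spindle poles apart. Kif11 stood at 19.8, 16.9, and 21.3 CPM in PBS replicates 1 to 3, 61.6, 53.9, and 58.8 CPM after soluble OVA, and 61.6, 55.4, and 43.7 CPM after OVA NPs in the spleen. Peyer's patch libraries held 88.2, 82.7, and 69.4 CPM in PBS replicates 1 to 3, 164, 184, and 163 CPM after soluble OVA, and 58.1, 83.3, and 88.4 CPM after OVA NPs. Only the soluble OVA libraries stood apart in Peyer's patch, and the change in the spleen was 1.48 ± 0.12 after OVA NPs and 1.61 ± 0.09 after soluble OVA (adjusted p = 5.48e-05 and 1.08e-07, edgeR). Of the other 7 motors, Kif2c, which takes microtubules apart at centromeres, rose most after OVA NPs in the spleen, by 1.57. Kif23 and Kif20a, which work in the central spindle, rose by 1.51 and 1.36. Kif15 rose by 1.33, Kif4 by 1.29, and Kif22 by 1.15, with Kif18a, which damps chromosome movement, at 1.03. The 8 kinesins spanned in Peyer's patch 0.95 to 1.19 after soluble OVA and -0.25 to 0.01 after OVA NPs.

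Aurora B (Aurkb), INCENP, survivin (Birc5), and borealin (Cdca8) correct faulty attachments and later sit at the cleavage site. In the spleen, Aurkb stood at 19.3, 16.6, and 19.6 CPM in PBS replicates 1 to 3, 46.4, 38.1, and 43.1 CPM after soluble OVA, and 48.5, 38.8, and 30.8 CPM after OVA NPs. Aurkb in Peyer's patch stood at 57.0, 44.6, and 49.7 CPM in PBS replicates 1 to 3, 113, 113, and 103 CPM after soluble OVA, and 36.5, 48.4, and 46.3 CPM after OVA NPs. Birc5 was steady in spleen PBS and rose, with 13.8, 13.6, and 13.6 CPM in PBS replicates 1 to 3, 51.6, 36.6, and 45.1 CPM after soluble OVA, and 43.1, 39.9, and 30.8 CPM after OVA NPs. Birc5 in Peyer's patch had 67.0, 53.6, and 59.3 CPM in PBS replicates 1 to 3, 115, 119, and 119.6 CPM after soluble OVA, and 39.1, 55.8, and 57.8 CPM after OVA NPs. The spleen changes of the subunits were not compared by a test. Birc5 rose by 1.48 ± 0.11 after OVA NPs and 1.73 ± 0.12 after soluble OVA, Cdca8 by 1.43 and 1.68, Aurkb by 1.10 ± 0.15 and 1.23 ± 0.10, and Incenp by 0.98 and 1.06. After soluble OVA in Peyer's patch they lay between 0.99 for Birc5 and 1.14 for Aurkb.

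Topoisomerase II alpha (Top2a) untangles DNA, condensin (Smc2, Smc4, Ncapd2, Ncapg, and Ncaph) folds chromosomes, and Ki-67 (Mki67) coats their surface and is the usual stain for proliferation. Mki67 had 153, 134, and 181 CPM in PBS replicates 1 to 3, 412, 484, and 533 CPM after soluble OVA, and 575, 465, and 396 CPM after OVA NPs in the spleen. Its Peyer's patch levels were 825, 711, and 680.4 CPM in PBS replicates 1 to 3, 1545, 1724, and 1672 CPM after soluble OVA, and 586, 825, and 792 CPM after OVA NPs. The spleen groups did not overlap with PBS, with changes of 1.63 ± 0.18 after OVA NPs and 1.63 ± 0.12 after soluble OVA (adjusted p = 0.00359 and 1.23e-05, edgeR). Top2a had 79.4, 74.2, and 82.6 CPM in PBS replicates 1 to 3, 215, 196, and 238 CPM after soluble OVA, and 251, 203, and 178 CPM after OVA NPs in the spleen. Top2a in Peyer's patch had 351, 307, and 274 CPM in PBS replicates 1 to 3, 640.1, 727, and 655 CPM after soluble OVA, and 225, 315, and 317 CPM after OVA NPs. After OVA NPs the change of Top2a was 1.43 ± 0.12 for spleen libraries and -0.11 ± 0.16 for those of Peyer's patch (adjusted p = 0.000258 and 0.833, edgeR).

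Smc4, the core ATPase subunit shared by both condensins, changed least of all members after OVA NPs in the spleen, with 192, 185, and 170.5 CPM in PBS replicates 1 to 3, 266, 219, and 224 CPM after soluble OVA, and 245, 211, and 212 CPM after OVA NPs. Smc4 in Peyer's patch had 260.4, 258, and 221 CPM in PBS replicates 1 to 3, 379, 409.7, and 452 CPM after soluble OVA, and 229.6, 279, and 276 CPM after OVA NPs. The treated spleen libraries were still all above the PBS libraries, with changes of 0.30 ± 0.06 and 0.40 ± 0.08 (adjusted p = 0.00437 and 0.00335, edgeR), and the call after OVA NPs was lost without OVA NP replicate 1, at 0.24. The other core subunit Smc2 rose by 0.68 and 0.68. The non-SMC subunits rose more, with Ncapg at 1.64 and 1.70, Ncaph at 1.26 and 1.38, and Ncapd2 at 0.80 and 0.90. Per kilobase of exon, Smc4 was the most abundant member in spleen PBS libraries, at 35.0 ± 2.11 CPM per kb (SD, n = 3), followed by Mki67 at 15.5 ± 2.36. In both treated spleen groups the means of Mki67 (47.3 ± 6.06 after soluble OVA and 47.6 ± 8.97 after OVA NPs) and Smc4 (45.4 ± 4.89 and 42.7 ± 3.71) lay within their SDs of each other. In Peyer's patch after soluble OVA Mki67 led with 163.7 ± 9.17 CPM per kb, ahead of Cdc20 at 110.0 ± 4.44.

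TPX2 activates Aurora A and seeds microtubules, NUSAP1 bundles them, and HMMR and DLGAP5 stabilize the spindle. After OVA NPs in the spleen Hmmr rose by 1.51, Tpx2 by 1.45, Nusap1 by 1.45, and Dlgap5 by 0.84. After soluble OVA the spleen values were 1.52, 1.64, 1.70, and 0.93 in the same order. Soluble OVA raised the 4 genes in Peyer's patch by 0.90 to 1.20.

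PRC1 bundles the central spindle, RACGAP1 and ECT2 switch on the small GTPase RhoA at the cell equator, and anillin (Anln) holds the contractile ring. Prc1 stood at 19.5, 16.2, and 15.6 CPM in PBS replicates 1 to 3, 42.6, 39.3, and 45.2 CPM after soluble OVA, and 49.5, 40.8, and 35.0 CPM after OVA NPs in the spleen. Prc1 in Peyer's patch stood at 59.1, 50.5, and 52.7 CPM in PBS replicates 1 to 3, 111, 122, and 129 CPM after soluble OVA, and 39.1, 54.7, and 58.0 CPM after OVA NPs. Treated spleen libraries were all above PBS for Prc1, with changes of 1.30 ± 0.12 after OVA NPs and 1.33 ± 0.10 after soluble OVA (adjusted p = 6.01e-05 and 5.18e-07, edgeR). Ect2 rose by 1.15 and 1.24, Racgap1 by 1.15 and 1.33, and Anln by 0.83 and 0.88. Anln was also among the members that differed least between the tissues of PBS mice, at 0.81 ± 0.12, together with Smc4 at 0.51 ± 0.08 and Cenpa at 0.68 ± 0.09.

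Whether the effect of a treatment differed between the tissues was tested as an interaction of tissue and treatment over 12 libraries. For OVA NPs the Peyer's patch effect was lower than the spleen effect for 47 of 54 members at an adjusted p under 0.05 (3.54% of tested genes were lower), with a median difference of -1.42 on the log2 scale (all genes 0.00). Nek2 differed most, by -1.94 ± 0.18, and Plk1 by -1.54 ± 0.18 (adjusted p = 0.000275 and 0.00118, edgeR). The 7 members that did not pass were Cenpa, Ndc80, Spc25, Knl1, Smc2, Smc4, and Anln, with differences from -0.92 for Knl1 to -0.19 for Smc4. For soluble OVA the difference was smaller, with 11 of 54 lower (5.07% of tested genes) and a median of -0.33 (all genes -0.04). The 11 were Ccnb2, Nek2, Melk, Esco2, Spc24, Kif23, Kif2c, Birc5, Cdca8, Ncapg, and Tpx2, with Esco2 at -0.78 ± 0.17 the furthest from 0. This count moved between 3 (without spleen PBS replicate 1) and 16 (without Peyer's patch PBS replicate 3), and was 18 with DESeq2, 1 of them higher.

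Where no member was called, limits of 2 SE show the spread of the estimates. Their coverage was not computed, so they do not bound the size of a change. In the spleen between OVA NPs and soluble OVA, the limits of 2 SE around each estimate reached no lower than -0.60 (Melk) and no higher than 0.62 (Knl1) among the 54 members. For OVA NPs against PBS in Peyer's patch they reached -0.69 (Melk) and 0.52 (Knl1). There the limits of Nek2, -0.59 to -0.04, left out 0, although Nek2 was not at an unadjusted p under 0.05 by edgeR. Counts for single libraries are given without a share over all genes, which was not computed. Peyer's patch OVA NP replicate 1 had 51 of 54 members below all PBS libraries of the tissue, against 10 and 4 members in replicates 2 and 3. Without it the median of the members was 0.01 and 0 were called. Its germinal center marker sum was also the lowest, as given below.

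Other genes of mitosis followed less evenly. In a list of 98 further genes, 58 were called higher and 0 lower in the spleen after OVA NPs (median 0.59), 64 and 0 after soluble OVA (median 0.59), and 80 and 0 in Peyer's patch after soluble OVA (median 0.76). Of all tested genes, 8.6% and 10.5% were called higher in the spleen after OVA NPs and soluble OVA. The share in Peyer's patch after soluble OVA was 13.5%. OVA NPs against PBS in Peyer's patch gave 0 calls by edgeR, which called 0% of all tested genes there in either direction. Of the 98, 4 were at an unadjusted p under 0.05, and the median was -0.06. Spindle and cytokinesis genes led, with 21 of 24 higher in the spleen after OVA NPs and a median of 1.19. Cep55, which recruits the machinery of abscission, was the furthest up at 1.98 ± 0.31 (adjusted p = 0.00935). Cohesin and condensin genes outside the list changed in 3 of 15 cases, with a median of 0.12, and the lowest was the cohesin loader subunit Mau2 at -0.13 ± 0.05, which was not called. Among the transcription factors, 5 of 8 were higher. Foxm1 and Mybl2, named after their values were seen because their products act at CHR promoters, were higher by 1.07 ± 0.12 and 1.31 ± 0.14 (adjusted p = 5.42e-05 and 6.11e-05, edgeR).

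Genes of S phase, in which DNA is copied, rose with the mitosis genes but by less. Of 42 S-phase genes, 37 were higher in the spleen after OVA NPs (median 0.69, from Pold1 at 0.16 to Ccne2 at 1.50), 40 after soluble OVA (median 0.73), and 40 in Peyer's patch after soluble OVA (median 0.89), with 0 calls after OVA NPs in Peyer's patch by edgeR and 1 at an unadjusted p under 0.05. Beside these counts, 8.6% and 10.5% of all tested genes were called higher in the spleen after OVA NPs and soluble OVA. For soluble OVA in Peyer's patch the share was 13.5%, and for OVA NPs there it was 0% in either direction. The members' sum divided by the S-phase sum was 0.676 to 0.705 in spleen PBS libraries, 0.992 to 1.05 after soluble OVA, and 0.950 to 1.03 after OVA NPs. In Peyer's patch it was 1.23 to 1.24 in PBS libraries, 1.35 to 1.47 after soluble OVA, and 1.22 to 1.35 after OVA NPs. Spleen PBS libraries had the lowest ratio, with no overlap with any other group.

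Markers of other cells and states are given beside these changes. The summed level of 10 germinal center B cell genes (Bcl6, S1pr2, and 8 others) was 110 to 187 CPM in spleen PBS libraries, 417 to 587 after soluble OVA, and 384 to 440.3 after OVA NPs. In Peyer's patch it was 1277 to 1481 in PBS libraries, 2281 to 2379 after soluble OVA, and 986 to 1415 after OVA NPs, the lowest being OVA NP replicate 1. None of the 10 was at 0 in all libraries of a group. In the spleen Bcl6 held much of the PBS sum, at 82.4 to 98.9 CPM. It rose less than the sum, with 111 to 120 CPM after soluble OVA and 101 to 115 after OVA NPs. S1pr2 stood at 3.46 to 12.1, 42.1 to 57.5, and 37.3 to 47.1 CPM in the same order. Of the germinal center genes tested, 8 of 9 were called higher in the spleen after OVA NPs, 10 of 10 after soluble OVA, and 9 of 10 in Peyer's patch after soluble OVA, with 0 of 10 called there after OVA NPs by edgeR and 0 at an unadjusted p under 0.05. The shares of all tested genes called higher were 8.6% and 10.5% in the spleen after OVA NPs and soluble OVA. In Peyer's patch after soluble OVA the share was 13.5%, and after OVA NPs edgeR called 0% of genes there in either direction. Whether the mitosis genes changed within germinal center cells or with their number was not tested.

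**Figure D5:**
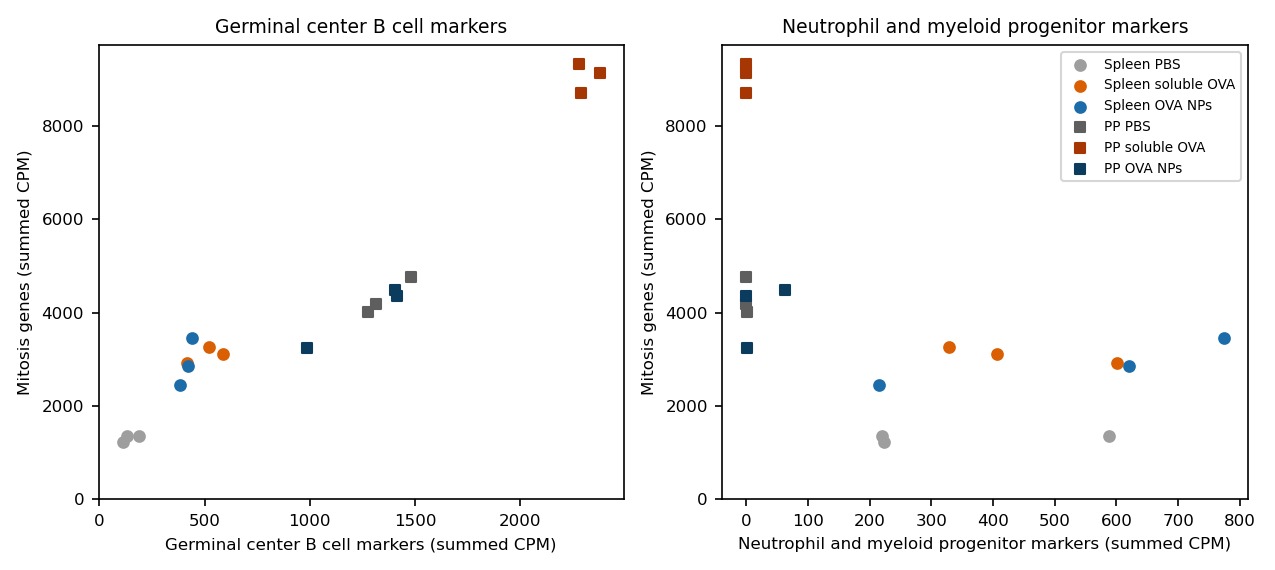
Summed CPM of the 54 mitosis genes (y axis from 0) against the summed CPM of 10 germinal center B cell markers (left) and 8 neutrophil and myeloid progenitor markers (right) in each of the 18 libraries (points, colored by group, circles spleen and squares Peyer's patch, PP). Spleen PBS libraries are lowest and Peyer's patch soluble OVA libraries highest on both axes of the left panel, and on the right the spleen PBS libraries lie within the range of the treated spleen libraries on the x axis.

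The 8 neutrophil and myeloid progenitor markers, which include genes of dividing progenitors, summed to 220 to 587 CPM in spleen PBS libraries, 329 to 600.1 after soluble OVA, and 215 to 774 after OVA NPs. Spleen OVA NP replicate 3 had 117 CPM of Mpo and 26.1 CPM of Klf1, both within or below the PBS range (104 to 296 and 27.2 to 36.9). In that library 53 of 54 members stood above all PBS libraries, again without a share over all genes. Across spleen OVA NP replicates 1, 2, and 3 the myeloid sum was 774, 619.7, and 215 CPM, the erythroid sum 383, 333, and 180.5 CPM, and the member sum 3465, 2853, and 2447.5 CPM, so the 3 sums had the same order. Of PBS libraries, replicate 3 had the most Mpo, 296 CPM, and a member sum of 1361 CPM beside 1350.4 in replicate 1. In Peyer's patch these markers summed to at most 0.364 CPM in PBS and 0.124 CPM in soluble OVA libraries, and to 0.179, 0.471, and 63.3 CPM after OVA NPs. Erythroid markers summed to 179 to 252 CPM in spleen PBS, 224 to 258 after soluble OVA, and 180.5 to 383 after OVA NPs. Spleen groups overlapped with PBS for both lists, and their part in the changes was not tested. The plasma cell sums did not overlap, at 438 to 499 CPM in spleen PBS, 556 to 633 after soluble OVA, and 674 to 697 after OVA NPs. Jchain held much of this, at 87.7 to 146, 206 to 265, and 286 to 324 CPM in the same order, and Xbp1 and Derl3 were also higher. Irf4 went the other way, at 211 to 221, 158 to 180, and 166 to 199 CPM. Sdc1, Prdm1, Slamf7, and Tnfrsf17 overlapped with PBS. The part of this list was not tested either. Monocyte and macrophage markers ran from 84.6 to 214 CPM in spleen PBS, 34.5 to 76.8 after soluble OVA, and 38.5 to 158 after OVA NPs. The Peyer's patch sums of that list ran from 128 to 186 CPM in PBS, 107 to 129 after soluble OVA, and 167 to 258 after OVA NPs, which were above soluble OVA without overlap. T cell markers lay between 69.6 and 90.2 CPM in the spleen. Their Peyer's patch sums were 142 to 167 CPM in PBS, 154 to 172 after soluble OVA, and 133 to 139 after OVA NPs, below both other groups. Lck held most of these sums in both tissues, and in Peyer's patch it was lowest after OVA NPs, at 106 to 118 CPM. Other genes of the list went the other way there. Cd3e was 1.83 to 3.48 CPM in PBS, 0.940 to 2.03 after soluble OVA, and 4.50 to 5.89 after OVA NPs. Cd3g, Cd4, Cd8a, and Trac were also highest after OVA NPs without overlap, and Cd3d and Cd5 overlapped. The part of either list in the Peyer's patch differences was not tested. Epithelial markers lay between 7.37 and 10.2 CPM in the spleen and 144 and 684 CPM in Peyer's patch.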

How the data were processed

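Poly(A) RNA of B cells was sequenced in 18 libraries. The submitters' processing notes name cutadapt 2.3, FastQC 0.11.8, STAR 2.7.8a, RSEM 1.3.3, and MultiQC 1.7. The authors deposited RSEM expected counts per gene, which were whole numbers for every gene here and were used as they stood. Library totals set the precision: 3 counts stood for 0.0998 to 0.212 CPM. Groups came from the sample labels.

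The 54 members, the other gene lists, and the tests were chosen with earlier results of these data known. For each comparison, edgeR 4.0.16 (R 4.3.3; filterByExpr, TMM, quasi-likelihood F test) was fitted to all genes in the libraries of its groups, with p-values adjusted by the Benjamini-Hochberg method over all tested genes. Interactions used 12 libraries. A call needed an adjusted p under 0.05 and, outside interactions, a log2 fold change beyond 0.25. CPM were counts per 1000000 of the library total. Genes named in full were 16 members fixed by role and the members with the largest and smallest change in the spleen after OVA NPs; every other member was named with a value.

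Alternatives were DESeq2 1.42.0, other filters, all 18 libraries in one fit, each library left out, and a replicate block. Residuals of same-numbered libraries, within each tissue and between the tissues for each treatment, correlated between -0.306 and 0.299, and no comparison had all its pairs over 0.1, so libraries were treated as unpaired. The labels do not say whether numbers mark shared mice. On simulated counts edgeR recovered 198 of 200 changed genes for OVA NPs in the spleen among 14223 tested, with 17 unchanged genes called, and 122 of 200 for the OVA NP interaction among 16091 tested, with 7, at a log2 change of 1 in both. The simulation gave every gene the same dispersion, changed only well-counted genes, and scored adjusted p without the fold-change cutoff. Its recovery need not hold for the real libraries. Gene positions came from GRCm38 and promoters from RefSeq windows of GRCm38.p6.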

Additional observations from a re-analysis of the deposited data

Results flagged for a closer look

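The effect of OVA NPs against PBS differed between the tissues by the interaction test of edgeR for 47 of 54 members, each with a lower effect in Peyer's patch. Of all tested genes, 3.54% were lower there by this test. Among the members given in full, the difference of log2 fold changes, Peyer's patch minus spleen, was -1.41 for Cdk1, -1.48 for Ccnb1, -1.64 for Ccnb2, -1.54 for Plk1, -1.43 for Bub1b, -1.56 for Cdc20, and -1.49 for Espl1. It was -1.73 for Esco2, -1.36 for Cenpe, -1.51 for Kif11, -1.28 for Aurkb, -1.69 for Birc5, -1.53 for Top2a, -1.61 for Mki67, and -1.37 for Prc1. For soluble OVA the same test passed for 11 members (5.07% of tested genes were lower), among them Ccnb2 at -0.65, Esco2 at -0.78, and Birc5 at -0.73. That count ran from 3 to 19 across the settings given below. Members started from higher levels in Peyer's patch, and only that tissue was digested, so tissue and digestion cannot be told apart.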

How the results depend on the processing

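The counts of called members held under other filters, DESeq2, and all 18 libraries in one fit: 52 to 54 for OVA NPs and 53 to 54 for soluble OVA in the spleen, 53 to 54 for soluble OVA in Peyer's patch, and 0 for OVA NPs against soluble OVA in the spleen and against PBS in Peyer's patch. Leaving out single libraries gave 51 to 54 for OVA NPs in the spleen and 40 to 51 for the OVA NP interaction. The soluble OVA interaction, 11 members, depended most on the setting, with 18 by DESeq2, 19 with genes of at least 10 counts, and 3 to 16 without single libraries: 3 and 4 without spleen PBS replicates 1 and 2, 5 and 6 without spleen soluble OVA replicates 1 and 3, 4 without Peyer's patch PBS replicate 1, and 7, 5, and 4 without Peyer's patch soluble OVA replicates 1, 2, and 3. The cause was not tested. With a replicate block the counts were 54 for either treatment in the spleen, 0 between them, 54 for soluble OVA and 0 for OVA NPs against PBS in Peyer's patch, 53 between those, 54 between tissues, and 43 and 8 for the OVA NP and soluble OVA interactions, and the numbers are not known to pair libraries. Values near 0 changed sign. Between OVA NPs and soluble OVA in the spleen, Mki67 (0.00) was -0.00295 without a filter, -0.00606 with the block, and -0.00430 with all 18 libraries, and without single libraries it ran from -0.14 to 0.11, Smc4 from -0.157 to 0.00323, Espl1 from -0.24 to 0.0536, Top2a from -0.18 to 0.0494, Prc1 from -0.16 to 0.0701, Cenpa from -0.0136 to 0.18, Cdk1 from -0.23 to 0.0939, and Aurkb from -0.29 to 0.0121. For OVA NPs against PBS in Peyer's patch, Mki67 was -0.00626 with the block and -0.00331 with all 18 libraries, and without single libraries it ran from -0.0923 to 0.15, Ndc80 from -0.15 to 0.14, Kif11 from -0.16 to 0.12, Cenpe from -0.0375 to 0.25, Espl1 from -0.22 to 0.0288, Cenpa from -0.23 to 0.10, Top2a from -0.20 to 0.0467, and Prc1 from -0.19 to 0.0820. In the soluble OVA interaction Cenpa was 0.0184 without a filter and -0.10 to 0.0874 without single libraries, and Aurkb -0.16 to 0.0367. Cenpa also lost its call for soluble OVA in Peyer's patch without 4 single libraries and with all 18 in one fit, at 0.28 to 0.37.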
